A study of Homo sapiens with 18 samples.

Results

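The Sm core proteins of the spliceosome were followed through the messenger RNAs of the 8 genes that encode them: SNRPB, its paralog SNRPN, SNRPD1, SNRPD2, SNRPD3, SNRPE, SNRPF and SNRPG. These genes were chosen by symbol among the 35168 Ensembl genes of the tables, and each of the 8 matched 1 identifier. RNA was sequenced in 18 libraries of H1, a human embryonic stem cell (hESC) line, with 3 libraries for each of 6 groups. The tested genotype (USB1 mutant) carried a single-base loss-of-function deletion of USB1, introduced with CRISPR/Cas9 and isolated from picked colonies, and the control was the unedited H1 line (WT). Both genotypes were sampled as undifferentiated hESCs (day 0, D0), at day 16 (D16) of hematopoietic differentiation, where the study describes CD34+/CD45+ hematopoietic progenitors, and at day 30 (D30), which it calls mature blood cells. The number of mutant clones behind the libraries is not given in the sources used here.

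Sm proteins assemble as a heptameric ring on a uridine-rich site of the U1, U2, U4 and U5 small nuclear RNAs, and the ring is the core of each of these small nuclear ribonucleoproteins (snRNPs). SNRPB encodes SmB and SmB′, which sit in the ring beside SmD3, SNRPD1 and SNRPD2 encode the SmD1 and SmD2 pair, and SNRPE, SNRPF and SNRPG encode the SmE, SmF and SmG trio. SNRPN encodes SmN, which takes the place of SmB, is best known from brain and heart, and is expressed from the paternal chromosome 15 only, in the region lost in Prader-Willi syndrome. U6, the snRNA whose end USB1 trims, does not carry the Sm ring but the related ring of Lsm proteins.

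SNRPB and SNRPN are close enough in sequence that it matters whether their reads can be told apart. Over the Ensembl canonical transcripts (GENCODE, GRCh38), the coding sequences of 693 bases in SNRPB and 720 bases in SNRPN aligned with 566 identical positions, 78.6% of the 720 aligned columns. SNRPB lies at chr20:2461634-2470853 on the minus strand and SNRPN at chr15:24823637-24978723 on the plus strand. The first 120 coding bases of each are shown from the start codon, with the 14 bases at which they differ in capitals.
SNRPB: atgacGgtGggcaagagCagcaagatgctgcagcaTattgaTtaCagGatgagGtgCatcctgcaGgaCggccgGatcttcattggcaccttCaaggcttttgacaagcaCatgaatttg
SNRPN: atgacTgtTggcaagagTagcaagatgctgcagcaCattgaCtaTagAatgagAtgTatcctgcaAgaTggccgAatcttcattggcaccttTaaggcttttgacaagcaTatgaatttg
The longest identical stretch of the aligned coding sequences was 32 bases, so that among all annotated transcripts of the genes only 2 sequences of 31 bases were common to both.
shared stretch: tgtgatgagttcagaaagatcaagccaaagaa
Sharing with other genes was larger. Of the 31-base sequences of SNRPN, 26.6% also occur in other genes, foremost in SNURF (20.5%) and then in ENSG00000214265, which both overlap it on the same strand, so the SNRPN level depends on how the reads of this bicistronic locus were divided. SNRPD3 shares 17.03% of its 31-base sequences, mainly with the overlapping ENSG00000286070. At D16 ENSG00000286070 held 520 to 691 counts in USB1 mutant and 360 to 729 in WT. SNRPD3 held 1108 to 1344 and 560 to 1288, so its level also depends on how shared reads were divided. SNRPD1 shares 15.6%, with at most 3.54% in any 1 other gene, and the remaining members share 4.20 to 10.6%. SNRPF also overlaps ENSG00000285030 on the same strand. Annotated pseudogene copies of the members held at most 0.338% of a member's counts over all libraries and at most 4.72% in any 1 library. SNRPD2 and SNRPF overlap genes on the opposite strand (QPCTL and CCDC38), and whether quantification used strand is not given in the sources used here.

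The 18 libraries held 4125125 to 19368927 counts, the lowest in USB1 mutant D30 replicate 3, where SNRPF had only 19 counts. Markers of the labelled stages were present: the summed level of 5 pluripotency genes (POU5F1, NANOG, SOX2, LIN28A, DNMT3B) was 2709 to 3288 TPM (a relative abundance corrected for transcript length) in USB1 mutant and 2939 to 2973 TPM in WT at D0, and at most 71.5 TPM later. USB1 itself was at 91.2 to 94.7 CPM (counts in each library scaled to the same total) in USB1 mutant and 79.3 to 93.3 CPM in WT at D0, a level that a small deletion need not change. At D16, WT replicate 3 stood apart from the other WT libraries, with the highest level of every member but SNRPN.

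Sm core messages were abundant in hESCs and fell to lower levels by D30 in both genotypes. The summed TPM of the 8 members was 1994 to 2081 in USB1 mutant and 1853 to 1993 in WT at D0, 1419 to 1495 in USB1 mutant and 847 to 1215 in WT at D16, and 384 to 505 in USB1 mutant and 482 to 527 in WT at D30. At D0 the order of levels was led by SNRPN in both genotypes (521.8 ± 56.6 TPM in USB1 mutant and 495.9 ± 55.0 in WT, SD, n = 3 each), followed by SNRPB, SNRPD2, SNRPG and SNRPE, with SNRPD1, SNRPD3 and SNRPF lowest. SNRPN and SNRPB overlapped between libraries in USB1 mutant hESCs but not in WT hESCs, where SNRPN was higher. At D16 the order differed between genotypes: SNRPB was first in USB1 mutant (370.2 ± 35.6 TPM), overlapping SNRPD2 and SNRPG in level, but in WT (139.2 ± 36.9 TPM) it followed SNRPD2, SNRPG and SNRPE, overlapping SNRPE. At D30 SNRPB, SNRPD2, SNRPN and SNRPG were the 4 most abundant in both genotypes, each overlapping its neighbor in the order, and SNRPF was the lowest throughout.

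**Figure D1:**
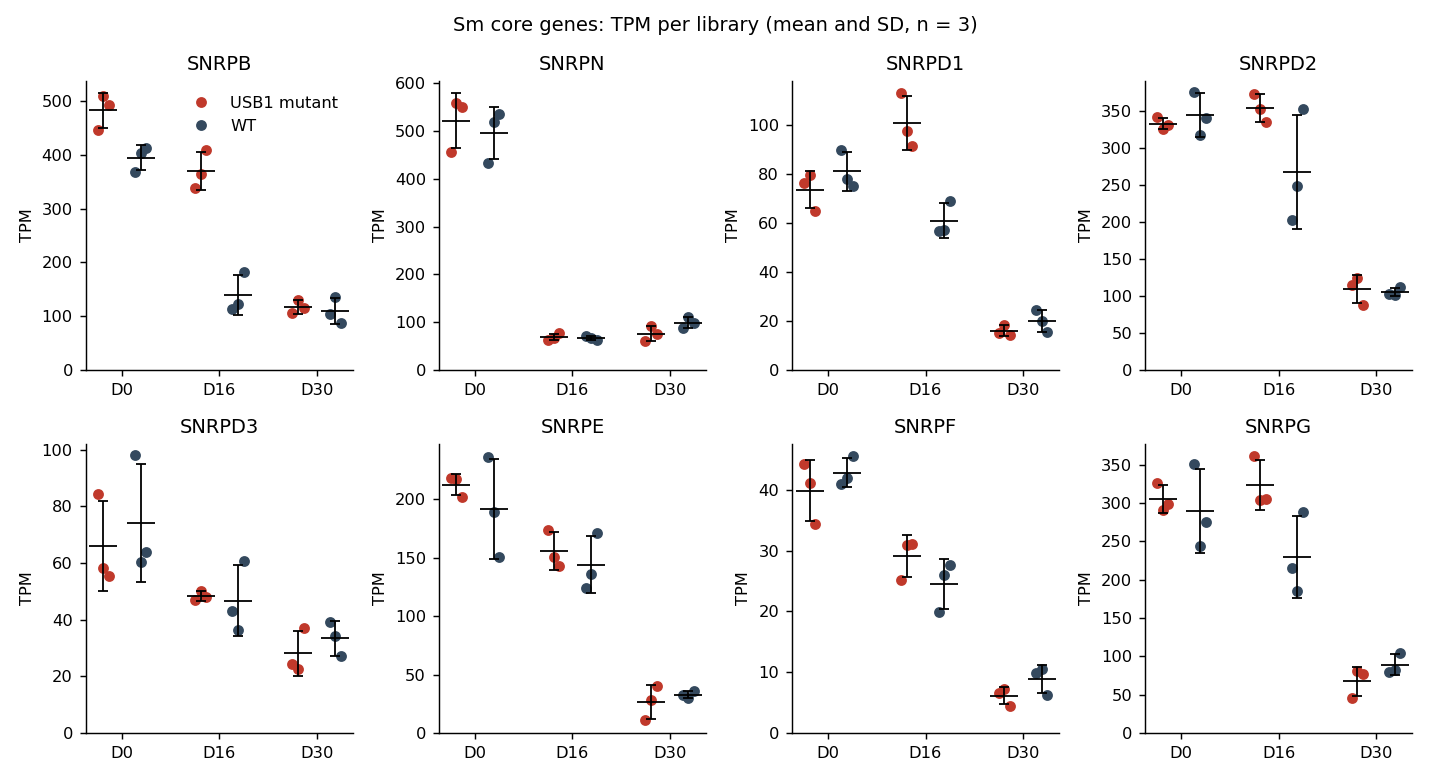
Level of each Sm core gene in TPM (y axes, linear from 0) at D0, D16 and D30 (x axes), with 1 point per library, USB1 mutant red and WT dark blue, and bars for mean and SD (n = 3). SNRPB at D16 lies between 337.9 and 408.3 TPM in USB1 mutant and between 113.6 and 181.4 TPM in WT, and SNRPN drops in both genotypes between D0 and D16.

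SNRPB was already known to be higher in the mutant when the members were chosen, and the question was how it stands beside its ring partners. It was the only member whose CPM did not overlap between genotypes on each of the 3 days (SNRPD1 did not at D16 alone). At D0, D16 and D30, 21.3, 38.5 and 35.8% of genes with at least 1 CPM did not overlap, with the mutant above in 10.9, 18.7 and 17.7%. These shares are for single days, and the share of genes above on all 3 days was not computed. At D0 it had 289.9, 300.7 and 306.7 CPM in the USB1 mutant libraries, against 215.8, 221.6 and 238.7 CPM in the WT libraries. Every mutant library was above every WT library, by a modest margin (log2 fold change 0.41 ± 0.08 SE, padj = 0.0482). Here padj is the p of the quasi-likelihood test in edgeR after adjustment by Benjamini-Hochberg across the whole table, and a gene was called when padj was under 0.1. The D0 call was lost without USB1 mutant replicate 2 (padj = 0.160), USB1 mutant replicate 3 (0.260) or WT replicate 2 (0.241), and in a fit over all 18 libraries (0.497), with log2 fold changes between 0.37 and 0.45 over all alternatives.

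At D16 the difference in SNRPB was largest. The USB1 mutant libraries had 225.1, 250.5 and 255.4 CPM, against 80.3, 86.2 and 133.1 CPM in the WT libraries. The lowest mutant library was well above the highest WT library, and 2 of the 3 WT libraries were close together below it. The log2 fold change was 1.28 ± 0.19 (padj = 0.00128), and SNRPB was called under each of the 17 alternatives run (1.15 to 1.55). At D30 SNRPB had 82.0, 90.5 and 93.0 CPM in USB1 mutant and 62.7, 80.6 and 56.9 CPM in WT. The CPM ranges still did not overlap, although those in TPM did (105.2 to 130.7 in USB1 mutant and 88.2 to 136.2 in WT), and the difference did not pass the threshold (0.40 ± 0.16, padj = 0.138). It was called without WT replicate 2 (0.56, padj = 0.0984) and in the fit over all 18 libraries (padj = 0.0966).

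SNRPB was the 1 member called at D0, where 2.93% of all 14719 genes tested were called, 1.07% higher and 1.87% lower. At D16 SNRPB and SNRPD1 were called higher, 2 of 8, where 13.1% of 14528 genes were called higher, 15.3% lower and 28.5% in either direction. Since SNRPB was already known to be higher in the mutant, counts that include it cannot be weighed against these shares. Apart from SNRPB, no member was called at D0, and SNRPD1 alone was called at D16. At D30 0 of 8 were called by edgeR, DESeq2 or limma-voom, where 20.6% of 14263 genes were called (10.8% higher and 9.75% lower), and 1 member (SNRPB) had an unadjusted p under 0.05. The median log2 fold change over the members was 0.10 at D0, 0.28 at D16 and −0.09 at D30, beside 0.00, 0.01 and −0.01 over all genes tested. Libraries with the same replicate number deviated together at D0 and, less clearly for replicate 1, at D16. With the number as a block 3 members were called at D0 (SNRPB, SNRPN at 0.20 with padj = 0.0824, and SNRPD2 at 0.27 with padj = 0.0439). At D16 4 were called (SNRPB, SNRPD1, SNRPD2 at 0.39 with padj = 0.0705, and SNRPG at 0.37 with padj = 0.0890). The same block called 1718 genes at D0, against 432 without it, and 5407 at D16, against 4135. The block fit did not use lengths. The effective length of SNRPD2 at D0 was 366 to 407 bases in USB1 mutant and 332 to 348 in WT. Its TPM at D0 overlapped, with 326.2 to 341.9 in USB1 mutant and 317.4 to 376.2 in WT.

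**Figure D2:**
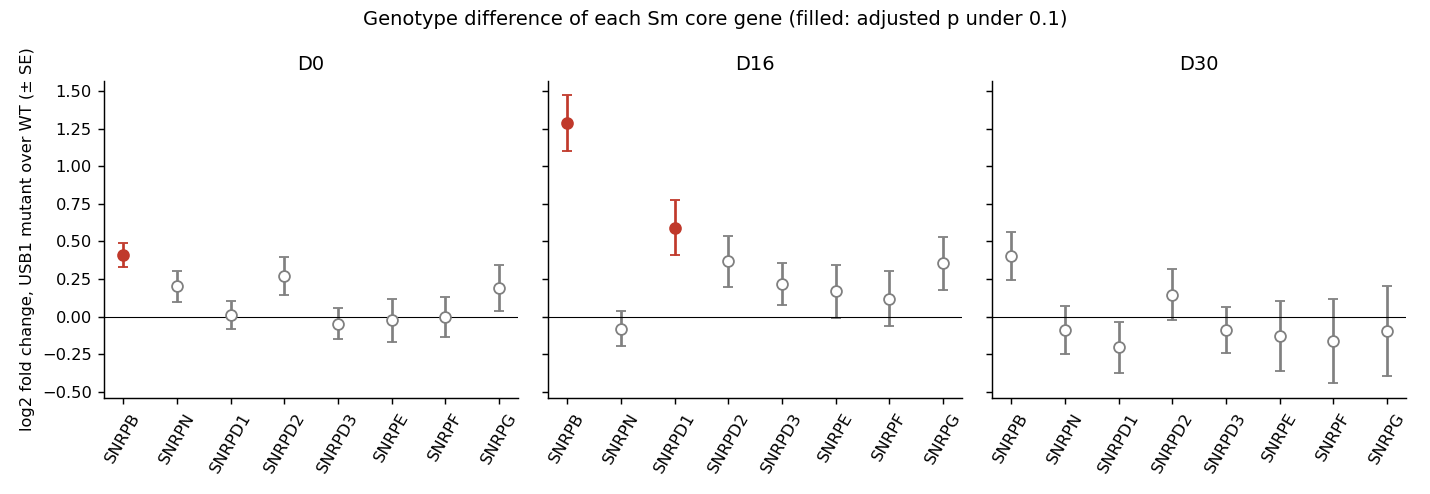
Log2 fold change of USB1 mutant over WT (y axis, ± SE) for each Sm core gene (x axis) at D0, D16 and D30, with filled red points for adjusted p under 0.1. SNRPB is filled at D0 (0.41) and D16 (1.28), SNRPD1 at D16 (0.59), and the points of the other members are open on each day.

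Of the SmD pair, SNRPD1 at D16 had 99.03, 85.3 and 81.6 CPM in USB1 mutant, against 47.8, 50.7 and 77.8 CPM in WT. The ranges did not overlap, although WT replicate 3 nearly reached the lowest mutant library. The log2 fold change was 0.59 ± 0.18 (padj = 0.0441), and the call was lost without USB1 mutant replicate 1 (padj = 0.158), WT replicate 1 (0.158) or WT replicate 2 (0.163). At D0 and D30 SNRPD1 did not pass the test (0.01 ± 0.09 and −0.21 ± 0.17). SNRPD2 had 93.2 to 109.2 CPM in USB1 mutant and 62.6 to 101.1 CPM in WT at D16 (0.37 ± 0.17, padj = 0.152), overlapping only through WT replicate 3. SNRPD3, whose product binds SmB, had 85.8 to 93.7 CPM in USB1 mutant and 67.0 to 91.5 CPM in WT at D16 (0.21 ± 0.14, padj = 0.300).

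Of the SmE, SmF and SmG trio, none was called on any day. At D16 SNRPG had 73.6 to 92.6 CPM in USB1 mutant and 51.7 to 83.6 CPM in WT (0.35 ± 0.18, padj = 0.185), SNRPE 55.3 to 71.9 CPM in USB1 mutant and 44.5 to 70.4 CPM in WT (0.17 ± 0.18, padj = 0.528), and SNRPF 20.9 to 27.4 CPM in USB1 mutant and 16.8 to 25.7 CPM in WT (0.12 ± 0.18, padj = 0.686). These ranges overlapped for each of the 3 genes. WT replicate 3 was the highest WT library for each partner. Without it 5 members were called, with SNRPD2 (0.58, padj = 0.00906), SNRPD3 (0.36, padj = 0.0514) and SNRPG (0.58, padj = 0.0116) joining SNRPB and SNRPD1. Leaving out this library also raised the genes called over the whole table, from 4135 to 5778, so the gain was not particular to the members.

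The paralog SNRPN was not called on any day in the test without the block. At D16, where SNRPB differed most, SNRPN had 62.5, 66.7 and 73.2 CPM in USB1 mutant and 73.7, 70.7 and 69.6 CPM in WT. The libraries of the genotypes overlapped, and the log2 fold change was −0.08 ± 0.12 (padj = 0.673). At D0 SNRPN had 451.1, 503.6 and 521.6 CPM in USB1 mutant and 385.9, 433.9 and 465.9 CPM in WT (0.20 ± 0.10, padj = 0.400), and at D30 67.9, 87.4 and 88.8 CPM in USB1 mutant and 75.0, 92.2 and 92.0 CPM in WT (−0.09 ± 0.16, padj = 0.758).

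Set beside each other per length, the SNRPB and SNRPN messages therefore divided differently by genotype. SNRPN made up 50.6, 52.4 and 52.7% of the summed TPM of SNRPB and SNRPN in USB1 mutant hESCs, against 54.1, 56.2 and 56.5% in WT hESCs. At D16 the share was 15.8, 15.7 and 15.9% in USB1 mutant, against 38.8, 35.1 and 25.8% in WT. At D30 it was 36.8, 41.3 and 39.5% in USB1 mutant, against 45.4, 45.1 and 53.0% in WT. The share was lower in every mutant library than in any WT library of the same day, and the gap at D16 was the widest. Since these shares hold SNRPB itself, they restate its difference on another scale and are given without a test.

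The ratio of SNRPB to its partners also holds SNRPB, so it restates the same difference on another scale and is given without a test. The ratio of SNRPB TPM to the geometric mean of the 6 partners (SNRPD1, SNRPD2, SNRPD3, SNRPE, SNRPF and SNRPG) was 3.22, 4.05 and 4.24 in USB1 mutant and 2.45, 3.38 and 3.42 in WT at D0, where the ranges overlapped. At D16 it was 2.79, 3.14 and 3.64 in USB1 mutant and 1.42, 1.47 and 1.61 in WT. WT replicate 3, which had the highest partner levels of WT, was also the highest WT library in this ratio (1.61). At D30 it was 4.60, 4.23 and 3.91 in USB1 mutant and 2.85, 3.90 and 2.74 in WT, with the ranges nearly touching.

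**Figure D3:**
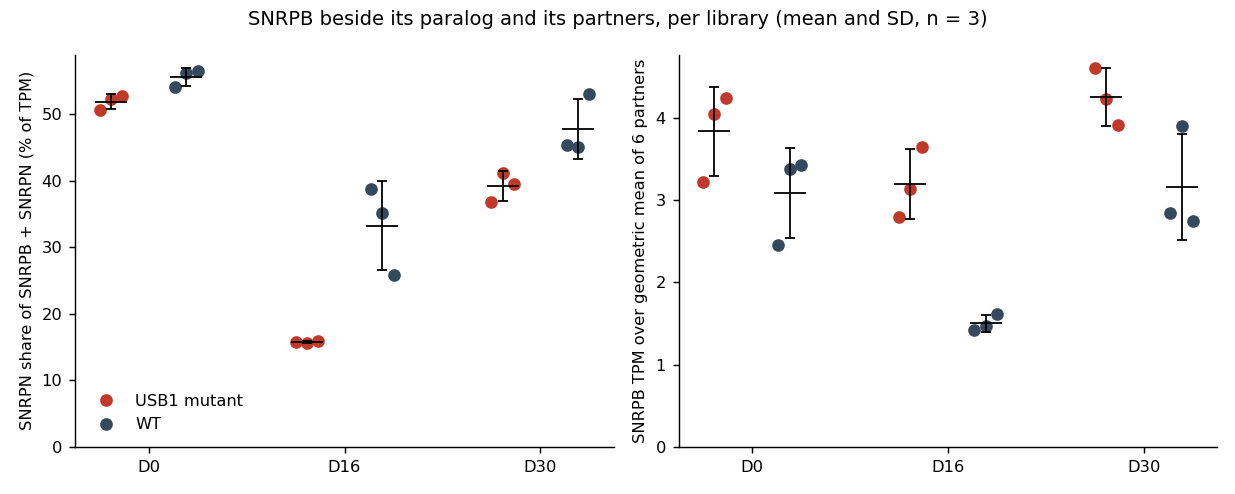
Left, SNRPN as a percentage of the summed TPM of SNRPB and SNRPN; right, SNRPB TPM over the geometric mean TPM of its 6 partners, with 1 point per library at D0, D16 and D30, USB1 mutant red and WT dark blue, and bars for mean and SD (n = 3). At D16 the USB1 mutant libraries lie at 15.7 to 15.9% and WT at 25.8 to 38.8% on the left, and at 2.79 to 3.64 and 1.42 to 1.61 on the right.

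SNRPB was not alone in its stretch of chromosome 20. Of the other tested genes within 5 Mb of it, the median log2 fold change of USB1 mutant over WT was 0.24 at D0 (63 genes), 0.61 at D16 (67 genes) and 0.19 at D30 (64 genes), beside 0.06, 0.11 and 0.05 for all tested genes of chromosome 20. At D16, 36 of the 67 neighbors were called higher and 5 lower. At D0 2 of 63 were called higher and 2 lower, and at D30 19 of 64 were called higher and 3 lower. SNRPB was above most of its neighbors at D0 and D16, with 10 of 63 and 10 of 67 at or above it, but not at D30, with 26 of 64 at or above it.

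The difference was seen near the end of the short arm, where SNRPB lies. Among genes starting within 2.5 Mb of SNRPB, 90.2% of 51 tested genes had a positive log2 fold change at D0 (median 0.25), 87.5% of 56 at D16 (median 0.71) and 64.8% of 54 at D30 (median 0.26). In the next 5 Mb toward the centromere the medians were −0.02 at D0 (16 genes), 0.15 at D16 (14 genes) and −0.18 at D30 (12 genes). In the interval beyond 25 Mb they were 0.05, −0.01 and 0.05. Among windows of 5 Mb on either side of each tested gene with at least 20 neighbors, 39 of 14100 at D0 and 52 of 13734 at D16 had a median as high as the SNRPB window or higher, and at D30 540 of 13443 had.

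The neighbors and SNRPB were higher in the same libraries. Relative to the WT mean of the day, the median of the neighbors (log2) was 0.70, 0.72 and 0.69 in the 3 USB1 mutant libraries at D16, against −0.11, 0.01 and 0.09 in the WT libraries. SNRPB was at 1.24, 1.40 and 1.43 in those mutant libraries, against −0.30, −0.17 and 0.47 in WT. In WT replicate 3, SNRPB stood 0.47 above the WT mean while its neighbors stood 0.09 above it. At D0 the neighbors were at 0.21, 0.19 and 0.30 in USB1 mutant and −0.10, 0.03 and 0.07 in WT. The part of this regional difference in the SNRPB result was not tested. The paper reports a normal karyotype of the USB1 mutant hESCs by G-banding. DNA copy number was not analysed here. A DNA difference between the edited and unedited lines in this region therefore cannot be told apart from an effect of the USB1 mutation on SNRPB.

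**Figure D4:**
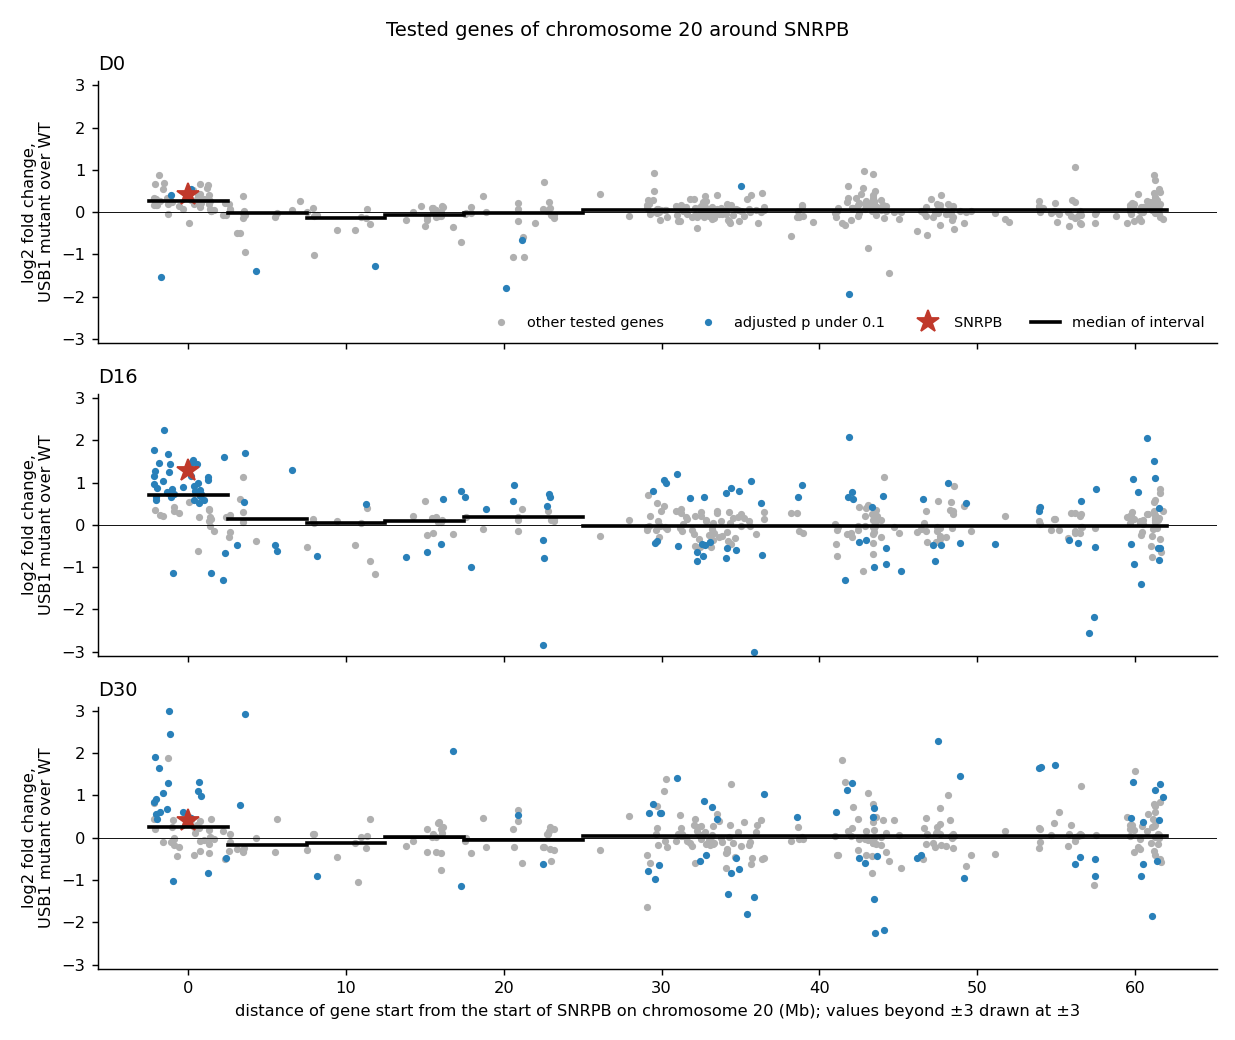
Log2 fold change of USB1 mutant over WT (y axis) for each tested gene of chromosome 20 against the distance of its start from that of SNRPB (x axis, Mb), in 3 panels for D0, D16 and D30, with called genes blue, SNRPB as a red star and black lines for the median of each interval. The interval within 2.5 Mb of SNRPB has medians of 0.25, 0.71 and 0.26, and the intervals farther along stay between −0.18 and 0.18.

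Another member lies in a region that differed between genotypes in the opposite direction. SNRPE is on the long arm of chromosome 1, where the median log2 fold change was −0.19 over 662 genes at D0, −0.49 over 686 at D16 and −0.31 over 678 at D30. Within 5 Mb of SNRPE, 43 of 81 tested genes were called lower at D16 and 4 higher, with a median of −0.56. SNRPE itself was at 0.17 ± 0.18 at D16, and 11 of these 81 genes were at or above it. DNA copy number of this arm was not analysed either, and the cause of its lower level was not tested. The windows of SNRPD2, SNRPD3, SNRPF and SNRPG had medians between −0.09 and 0.16 on each day, and that of SNRPN, 0.22 at D16. The SNRPD1 window held 19 to 23 genes, with medians of −0.00 at D0, 0.00 at D16 and −0.31 at D30.

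Cell type markers also moved with genotype, in both directions. At D16 the markers lower in USB1 mutant without overlap were those of granulocytes, progenitors and stroma. The summed level of 5 eosinophil, basophil and mast cell markers (EPX, PRG2, CLC, HDC, CPA3) was 9198 to 14059 TPM in USB1 mutant and 36624 to 68441 TPM in WT, and that of 6 neutrophil markers (MPO, ELANE, AZU1, CEBPE, S100A8, S100A9) was 3343 to 5355 TPM in USB1 mutant and 7365 to 11544 TPM in WT. Progenitor markers (CD34, PTPRC, SPN, KIT, MYB) were at 652 to 724 TPM in USB1 mutant and 734 to 895 TPM in WT, and stromal markers (COL1A1, COL1A2, COL3A1, DCN, LUM) at 12.8 to 20.9 TPM in USB1 mutant and 24.5 to 50.2 TPM in WT. Erythroid, megakaryocyte, endothelial, neural and pluripotency markers were higher in USB1 mutant at D16 without overlap. The sum of 4 erythroid markers (HBG2, HBA1, RHAG, ALAS2) was 2501 to 4234 TPM in USB1 mutant and 1036 to 1895 TPM in WT, that of 5 megakaryocyte and platelet markers (PF4, ITGA2B, GP9, PPBP, ITGB3) was 840.4 to 878 TPM in USB1 mutant and 435 to 514 TPM in WT, that of 5 endothelial markers (CDH5, TEK, PLVAP, ESAM, KDR) was 52.3 to 63.3 TPM in USB1 mutant and 20.8 to 34.1 TPM in WT, and that of 5 neural markers (PAX6, SYP, TUBB3, MAP2, SOX1) was 9.38 to 9.55 TPM in USB1 mutant and 5.72 to 8.42 TPM in WT, with SOX1 at 0 in both. The sum of 5 pluripotent stem cell markers was 57.7 to 71.5 TPM in USB1 mutant and 23.9 to 37.7 TPM in WT at D16. The monocyte and macrophage sum (CD14, CSF1R, CD68, CD163, C1QA) overlapped, with 204 to 299.6 TPM in USB1 mutant and 154 to 248 TPM in WT. At D30 neutrophil markers were at 965 to 4704 TPM in USB1 mutant and 12966 to 31842 TPM in WT, while the 4 erythroid markers were at 95673 to 121913 TPM in USB1 mutant and 32146 to 39092 TPM in WT. Progenitor markers were at 363 to 571 TPM in USB1 mutant and 593 to 654 TPM in WT at D30, and monocyte and macrophage markers at 680.0 to 1262 TPM in USB1 mutant and 1732 to 2334 TPM in WT. Eosinophil, basophil and mast cell markers overlapped at D30, with 2973 to 7382 TPM in USB1 mutant and 1953 to 7616 TPM in WT. Apart from the neural list, no marker of the lists named here for a day was at 0 on that day. In bulk libraries, fewer cells of a type and less RNA per cell cannot be told apart. The part of composition in the Sm results was not tested.

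The genotype difference in SNRPB changed over the differentiation. The genotype-by-day interaction in the fit over all 18 libraries was 0.91 ± 0.23 (log2) between D0 and D16 (padj = 0.0340) and −0.92 ± 0.23 between D16 and D30 (padj = 0.0142), and it did not pass the test between D0 and D30 (−0.01 ± 0.23, padj = 1.00). SNRPB was the 1 member called between D0 and D16, where 7.61% of 16829 genes were called (3.86% higher and 3.75% lower). Between D16 and D30 SNRPB and SNRPD1 (−0.82 ± 0.24, padj = 0.0283) were called, where 20.5% of genes were (10.3% higher and 10.2% lower). Between D0 and D30 0 of 8 were called by edgeR, DESeq2 or limma-voom and 0 had an unadjusted p under 0.05, where 10.9% of genes were called (6.42% higher and 4.48% lower). Leaving out replicate 1 or 2 of all groups ended each of these calls: the SNRPB interaction between D0 and D16 had padj = 0.198 and 0.413, and that between D16 and D30 padj = 0.104 and 0.248. For SNRPD1 the values were padj = 0.293 and 0.215.

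Within each genotype, SNRPN fell steeply as hESCs became progenitors, and the other members changed little or moderately. SNRPN had 456.7, 559.3 and 549.4 TPM at D0 and 63.3, 67.7 and 77.3 TPM at D16 in USB1 mutant. In WT it had 433.2, 518.5 and 536.1 TPM at D0 and 72.1, 66.4 and 63.2 TPM at D16. The log2 fold change of D16 over D0 was −2.68 ± 0.13 in USB1 mutant (padj = 3.74e-12) and −2.44 ± 0.13 in WT (padj = 1.05e-11), and the interaction did not pass the test (−0.24 ± 0.18, padj = 0.506). It was the 1 member called in USB1 mutant, where 72.9% of genes were called (36.9% higher and 36% lower). In WT 5 members were called lower, where 76.3% of genes were called (37% higher and 39.3% lower): SNRPN, SNRPB (−1.03 ± 0.17, padj = 2.18e-05), SNRPD3 (−0.42 ± 0.13, padj = 0.00868), SNRPD1 (−0.39 ± 0.16, padj = 0.0390) and SNRPF (−0.38 ± 0.19, padj = 0.0759). Of these, 3 calls were lost without replicate 1 of all groups, SNRPD1 (−0.23, padj = 0.290), SNRPD3 (−0.21, padj = 0.219) and SNRPF (−0.22, padj = 0.318), and those of SNRPD1 (−0.28, padj = 0.338) and SNRPF (−0.50, padj = 0.138) also without replicate 2. In USB1 mutant SNRPB stayed at −0.11 ± 0.16 (padj = 0.553).

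From D16 to D30 the ring partners fell together, as did many genes of the lists described below. Of 18 proliferation genes, 18 were called lower in USB1 mutant and 17 in WT. In USB1 mutant 16 of 22 snRNP assembly genes were called lower (2 higher) and 10 of 15 U1 and U2 genes (3 higher). So were 10 of 16 U5 and tri-snRNP genes (2 higher) and 8 of 14 Lsm genes (1 higher). In WT these lists had 14, 11, 8 and 10 called lower, and 4, 1, 2 and 2 higher. In USB1 mutant 7 of 8 members were called lower, where 69.8% of genes were called (34.7% higher and 35.1% lower), with log2 fold changes between −1.07 ± 0.14 for SNRPD3 and −2.53 ± 0.21 for SNRPE. SNRPB fell by 1.48 on the log2 scale (padj = 6.04e-07). In WT the same 7 were called lower, where 66.7% of genes were called (31.6% higher and 35.1% lower), between −0.56 ± 0.17 for SNRPB (padj = 0.00730) and −2.17 ± 0.20 for SNRPE. The WT fall of SNRPB was lost without replicate 3 of all groups (−0.18, padj = 0.333). SNRPN went the other way, by 0.25 ± 0.13 in USB1 mutant (padj = 0.0930) and 0.30 ± 0.13 in WT (padj = 0.0467), and these small rises were lost without replicate 2 (padj = 0.488 in USB1 mutant and 0.302 in WT) or replicate 3 (0.201 and 0.236).

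**Figure D5:**
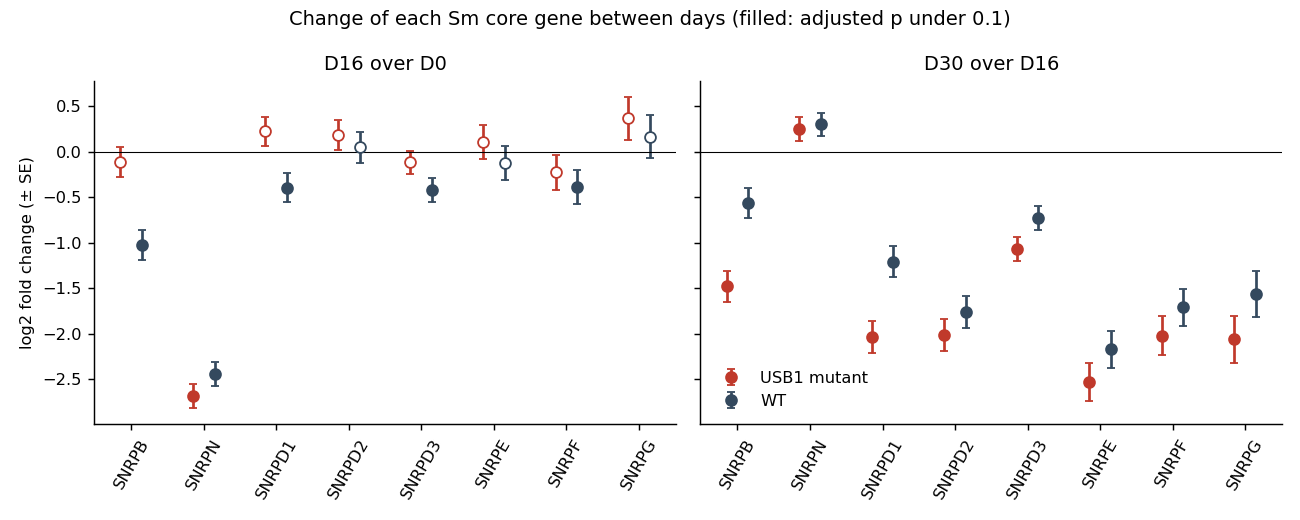
Log2 fold change of each Sm core gene between days (y axis, ± SE), D16 over D0 on the left and D30 over D16 on the right, USB1 mutant red and WT dark blue, filled where adjusted p was under 0.1. SNRPN is lowest on the left (−2.68 in USB1 mutant and −2.44 in WT), SNRPB is at −0.11 in USB1 mutant and −1.03 in WT, and on the right the members other than SNRPN lie between −0.56 and −2.53.

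Transcript length moved with day for some members and so bears on their day contrasts. The effective length of SNRPD1 was 989 to 1244 bases at D16, against 1313 to 1590 at D0 and 1435 to 1800 at D30. With the deposited lengths as offsets, SNRPD1 at D16 over D0 was called higher in USB1 mutant (0.71, padj = 0.00114) and was at 0.03 in WT (padj = 0.880), where counts alone had called it lower. Then 2 members were called in each genotype, with SNRPB and SNRPN kept in WT. The effective length of SNRPB differed little, with 779 to 807 bases at D0, 792 to 830 at D16 and 835 to 850 at D30. The D16 genotype call of SNRPB held with lengths.

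Some other genes of the snRNP pathway were also called higher at D16, to be read beside the 13.1% of all genes called higher and 15.3% called lower on that day. Of 21 tested genes for snRNP assembly (the SMN complex, the methylosome, nuclear import and the cap), 7 were called higher and 0 lower, with a median log2 fold change of 0.31. Among them were STRAP, the SMN complex component also called Unrip (0.56 ± 0.16, padj = 0.0344), DDX20 (Gemin3, 0.43 ± 0.14, padj = 0.0558), WDR77 (the methylosome protein MEP50, 0.60 ± 0.20, padj = 0.0574) and PHAX, the snRNA export adaptor (0.41 ± 0.14, padj = 0.0683). Of 15 U1 and U2 proteins 4 were called higher and 0 lower, SNRPC (0.57 ± 0.16, padj = 0.0319), SNRNP70 (0.47 ± 0.15, padj = 0.0468), SF3B5 (0.49 ± 0.18, padj = 0.0813) and SF3B6 (0.38 ± 0.15, padj = 0.0943). Of 16 U5 and tri-snRNP proteins 7 were called higher and 0 lower, among them PRPF3 (0.52 ± 0.13, padj = 0.0164), PRPF31 (0.47 ± 0.14, padj = 0.0371), PRPF6 (0.39 ± 0.12, padj = 0.0423) and USP39 (0.41 ± 0.13, padj = 0.0456). Of 14 Lsm proteins 3 were called higher and 0 lower: LSM4 (0.51 ± 0.16, padj = 0.0471), LSM3 (0.44 ± 0.15, padj = 0.0566) and LSM8 (0.40 ± 0.14, padj = 0.0610).

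Of 18 proliferation genes 7 were called higher and 0 lower at D16, where 13.1% of all genes were called higher, with a median of 0.39, among them CCNA2 (0.50 ± 0.14, padj = 0.0311), BIRC5 (0.47 ± 0.14, padj = 0.0354), BUB1 (0.52 ± 0.15, padj = 0.0377) and MCM2 (0.55 ± 0.17, padj = 0.0436). At D30 0 of 18 were called higher and 6 lower, where 10.8% of all genes were called higher and 9.75% lower, with a median of −0.42, among them TOP2A (−1.07 ± 0.21, padj = 0.0138), RRM2 (−0.79 ± 0.19, padj = 0.0314), BUB1 (−0.61 ± 0.15, padj = 0.0352) and MKI67 (−0.91 ± 0.23, padj = 0.0366). The median of the Sm core was 0.28 at D16 and −0.09 at D30. The part of proliferation in the Sm results was not tested.

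At D0 edgeR and limma-voom called 0 members of the snRNP and proliferation lists and DESeq2 1 proliferation gene, while 1 assembly, 3 U1 and U2, 1 U5 and tri-snRNP, 3 Lsm and 3 proliferation genes had an unadjusted p under 0.05. The smallest p-values were those of GEMIN7 (0.32 ± 0.10, padj = 0.197) and WDR77 (0.11 ± 0.08, padj = 0.567) for assembly, SNRPA (0.32 ± 0.11, padj = 0.202) and SF3B5 (0.33 ± 0.12, padj = 0.221) for U1 and U2, SNU13 (0.25 ± 0.10, padj = 0.291) and EFTUD2 (0.19 ± 0.10, padj = 0.389) for U5 and the tri-snRNP, LSM7 (0.36 ± 0.10, padj = 0.146) and LSM4 (0.29 ± 0.10, padj = 0.211) for Lsm proteins, and MCM7 (0.29 ± 0.08, padj = 0.134) and CDC20 (0.26 ± 0.09, padj = 0.224) for proliferation. At D30 edgeR called 0 of 21 assembly genes (DESeq2 1, and 2 with an unadjusted p under 0.05), with NCBP1 (−0.42 ± 0.15, padj = 0.113) and SMN1 (1.18 ± 0.47, padj = 0.134, a gene with the near-identical copy SMN2) at the smallest p. SF3A2 was called higher among U1 and U2 proteins at D30 (1.23 ± 0.30, padj = 0.0309), PRPF3 (0.65 ± 0.12, padj = 0.0128), SART1 (0.72 ± 0.18, padj = 0.0333) and PRPF6 (0.43 ± 0.15, padj = 0.0916) among U5 and tri-snRNP proteins, and LSM10 (1.09 ± 0.22, padj = 0.0152) and LSM8 (0.49 ± 0.15, padj = 0.0634) among Lsm proteins. LSM10 belongs to the Sm-like ring of the U7 snRNP, which processes histone messages and shares the SmB, SmD3, SmE, SmF and SmG proteins.

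The imprinted and neighboring genes around SNRPN on chromosome 15 were called in few cases and in both directions. At D0 edgeR called 0 of 6 tested genes (DESeq2 1, and 1 with an unadjusted p under 0.05), with MAGEL2 (1.35 ± 0.39, padj = 0.145) and UBE3A (−0.16 ± 0.09, padj = 0.474) at the smallest p. At D16 ATP10A was higher (1.84 ± 0.30, padj = 0.00232) and NPAP1 lower (−1.95 ± 0.37, padj = 0.00449) of 5 tested, and at D30 NDN was higher (2.25 ± 0.27, padj = 0.00300) of 5 tested. SNURF, which shares sequence with SNRPN, was at −0.33 ± 0.20, −0.16 ± 0.39 and 0.81 ± 0.37 at D0, D16 and D30 and was called on none of these days.

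Across the 18 libraries, the level pattern of SNRPB correlated positively with that of each ring partner (r = 0.75 to 0.87). The genes named next were picked as the highest of all 12290. Their lead over the partners therefore cannot tell whether SNRPB is more like genes outside the ring. Of 12290 genes with at least 5 CPM on average, those with the highest Pearson correlation of log2 CPM with SNRPB were NAT14 (r = 0.98), ALYREF, the mRNA export factor (r = 0.96), ZNF85 (r = 0.96), USP39, the tri-snRNP protein (r = 0.95), and FZD2, a Wnt receptor (r = 0.95). Its partners ranked from 443rd (SNRPD1, r = 0.87) and 462nd (SNRPD3, r = 0.86) to 1964th (SNRPG, r = 0.75), and SNRPN ranked 3655th (r = 0.59). The nearest genes to SNRPN were RASGRF2, TRIML2, TEAD1, HCN4 and TUBB3 (r = 0.99 each). These correlations are over libraries that share genotype and day, and are given as a description.

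The promoters of the members were searched for short motifs because the ring partners fell together from D16 to D30, a fall shared with many genes of the other lists. RefSeq promoter windows (GRCh38.p14, 250 bases before to 50 after a listed start) were matched for 7 of the 8 members, with several starts for some. The ETS core (CCGGAAG or CTTCCGG, both strands) was found in a window of SNRPB, SNRPD2, SNRPE and SNRPG, and in none of SNRPD3, SNRPF and SNRPN. Of all 35116 windows 10.3% held it. That is a rate per window, unlike the count of genes, since some genes have several and partly overlapping windows. The matches are shown with up to 10 bases on either side, on the strand of the gene, with the match in capitals.
SNRPB chr20:2470814-2470840, minus strand: gtgagctggaCCGGAAGtaggtttcta
SNRPD2 chr19:45692363-45692389, minus strand: gtccatgcccCTTCCGGatgtaggcag
SNRPE chr1:203861597-203861622, plus strand: ttctttattCCGGAAGttgctctcag
SNRPG chr2:70293383-70293409, minus strand: acggcacctcCTTCCGGccgactagtc
SNRPG chr2:70293492-70293518, minus strand: ttcatttcttCTTCCGGtccgaggtcg
The NRF1 half-site pair (both strands, 5.78% of windows) was found in windows of SNRPD2 and SNRPN, CCAAT (both strands, 34.6%) in SNRPD2, SNRPF and SNRPN, and neither TATAAA (both strands, 11.5%) nor the YY1 motif (both strands, 2.14%) in any. Each ETS match lies before a listed RefSeq start but inside the GENCODE span of its gene. A match of letters is not a binding site.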

How the data were processed

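RNA was rRNA-depleted and made into strand-specific libraries, and the submitters' processing notes name Trimmomatic 0.36 for trimming and Salmon 0.13.1 for quantification on GRCh38 transcripts. The authors deposited expected counts, TPM (abundance) and effective lengths (another unit, in bases) per gene and library, in 1 table per day. Expected counts were rounded and tested with edgeR 4.0.16 (R 4.3.3, filterByExpr, TMM, glmQLFit, glmQLFTest), per day for genotype and over 18 libraries with 6 group means for interactions and days. The threshold was 0.1 after Benjamini-Hochberg adjustment. Symbols came from GENCODE v44, which matched 35051 of 35168 identifiers. The 117 others held 0.238% of counts and stayed in. CPM are per day, and log2 CPM for correlations and neighbours used a prior count of 2. The test was checked on simulated data.

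Members and lists were chosen with earlier results of these data known. Named were all 8 members, up to 4 called genes of each list (or the 2 of smallest p, if none passed), and the 5 genes most correlated with SNRPB and SNRPN. A marker gene is not reported here, and its list was summed without it. Of 11 listed neighbours of SNRPN, 7 matched. Alternatives were RLE, scaling without globins and the 20 most abundant genes, other count filters, DESeq2 1.42.0, limma 3.58.1 (voom), lengths as offsets, a threshold of 0.05, left-out libraries and a block for replicate number.

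Samples with the same replicate number correlated in their deviations from the group means (r = 0.37, 0.18 and 0.24 at D0, and 0.11, 0.26 and 0.44 at D16). Samples of unlike number had r from −0.27 to 0.11 at D0 and from −0.37 to 0.14 at D16. At D16, USB1 mutant replicate 1 was no closer to WT replicate 1 (0.11) than to WT replicate 2 (0.14). The labels give no pairing, so the reported tests were unpaired and the paired fit was an alternative. At D30 samples with the same number had r = 0.13, −0.12 and 0.36, and no pairing was read from them. No source says that replicates came from separate cultures, and the spread behind each p-value may be technical.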

Additional observations from a re-analysis of the deposited data

Results flagged for a closer look

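The genotype difference of SNRPB itself differed between days by the interaction test of edgeR over 18 libraries: it was larger at D16 than at D0 by 0.91 on the log2 scale (padj = 0.0340), and the change from D16 to D30 was −0.92 (padj = 0.0142). For SNRPD1 the change of the genotype difference from D16 to D30 was −0.82 (padj = 0.0283). Each of these calls was lost without replicate 1 or replicate 2 of all groups.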

How the results depend on the processing

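Of 968 values of single members under alternatives, 925 kept their side of the threshold, 29 were no longer called and 13 became called. The sign changed in 45, of which 44 were called under neither setting and 1 had been called, SNRPD1 at D16 over D0 in WT, which was 0.031 with lengths as offsets. The cause of changes was not tested. With lengths, 2 members were called at D16 over D0 in USB1 mutant, against 1, and 2 in WT, against 5. In the fit over all 18 libraries the genotype comparison called 0 members at D0 and 1 at D30. Limma-voom called 2 members for the interaction between D0 and D16. The replicate block called 3 members at D0 and 4 at D16, and this paired fit changed no other call of a member. Leaving out replicates gave 0 to 1 members called at D0, 1 to 5 at D16, 0 to 1 at D30, 0 to 2 for the interaction between D0 and D16, 0 to 3 between D16 and D30, and 2 to 5 for D16 over D0 in WT. Genes called over the whole table at D0 numbered 432, against 1718 with the block, 174 with lengths, 185 in the 18-library fit and 227 at a threshold of 0.05. At D30 they numbered 2933, against 4892 in the 18-library fit and 1801 at a threshold of 0.05. For the interactions they numbered 1281 between D0 and D16, against 663 with lengths and 661 at 0.05, and 1834 between D0 and D30, against 1186 and 1131. Leaving out replicates lowered these counts to as few as 116 at D0, 2450 at D16, 1452 at D30, and 90, 1218 and 444 for the interactions D0 to D16, D16 to D30 and D0 to D30. Some omissions raised them. Without WT replicate 3 the D16 count was 5778, against 4135, and without USB1 mutant replicate 2 the D30 count was 2958, against 2933. The SNRPN share kept its direction in CPM, at −20.7 percentage points at D16 (mutant minus WT) against −17.5 in TPM. Low depth limits SNRPF at D30.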
